A study of Mus musculus with 20 samples.

Results

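The comparison examined here sets mouse myotubes exposed to bivalent 13-3B5, an antibody that binds and activates the receptor tyrosine kinase MuSK with both arms, against myotubes exposed to b12, an antibody of the same class used as negative control. Its members were the 8 libraries whose titles carry 13-3B5 or b12 without agrin, 4 of each and 8 of 20 in the series. The cells were C2C12, an established mouse myoblast line, switched to medium with horse serum for 5 days so that they fused into myotubes. Both groups received 7.7 nM of antibody of the human IgG4 class during 16 h, and neither received agrin. The other 12 libraries carried 0.1 nM neural agrin with b12 or with a monovalent antibody, and served here to estimate the spread of each gene. All cultures came from 1 line and held no nerve, so the values describe cultured myotubes without innervation and not muscle fibres. Replicates are called biological in the series description, and what separates one from the next is not given, so p-values measure only the spread between these samples.

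MuSK sits in the muscle membrane under the motor nerve terminal. Agrin from the nerve binds Lrp4, Lrp4 binds MuSK, and the paired receptors phosphorylate each other with the help of the adaptor Dok7. Rapsyn then gathers acetylcholine receptors beneath the nerve, and nuclei at the synapse transcribe receptor subunit genes through ETS factors such as GABP. A bivalent antibody can bring MuSK molecules together without agrin or Lrp4.

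Gene control elements tied to these pathways were read from RefSeq promoters (GRCm38.p6), taken as the 250 bases before each start. The N box, searched as CCGGAA on both strands, is the ETS site known from receptor subunit promoters, and 3952 of 32851 promoters (12.03%) held it. Of the 4 acetylcholine receptor subunit genes with an entry, 1 held these letters, Chrne, at position -76 from its start. A sterol regulatory element, searched as TCACNCCAC on both strands, is a site of the factors that turn on cholesterol synthesis, and 1.05% of promoters held it. Of 10 cholesterol synthesis genes with an entry, 1 held it, Hmgcs1, at position -137. Both promoters are shown, with the matched letters in capitals, because results on these gene groups follow. Chrne lies at chr11:70619195-70619444 on the minus strand and Hmgcs1 at chr13:119690101-119690350 on the plus strand.
Chrne: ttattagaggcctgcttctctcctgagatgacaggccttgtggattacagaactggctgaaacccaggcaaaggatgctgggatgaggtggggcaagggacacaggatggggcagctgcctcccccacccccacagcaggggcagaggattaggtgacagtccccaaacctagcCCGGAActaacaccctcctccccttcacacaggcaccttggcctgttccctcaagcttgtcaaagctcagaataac
Hmgcs1: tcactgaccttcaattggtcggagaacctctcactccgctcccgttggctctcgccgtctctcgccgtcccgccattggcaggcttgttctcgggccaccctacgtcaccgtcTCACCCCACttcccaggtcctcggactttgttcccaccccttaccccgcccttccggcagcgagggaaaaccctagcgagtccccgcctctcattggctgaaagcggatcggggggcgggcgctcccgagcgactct
The 12.03% and 1.05% above count single promoters, while the shares that follow count genes with a match in any of their promoters. Across genes tested with an entry, the N box was in 2617 of 10457 (25.03%). Their median log2 fold change was 0.00, the same as that of genes without it, and 2.79% of genes with it and 3.04% of genes without it had an unadjusted p-value under 0.05. For the sterol element, 4 of 133 genes with it (3.01%) and 2.97% of those without it reached that level. A match is a description of letters and not of a factor bound there.

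Depth was similar in the 8 libraries. Totals lay between 18424881 and 22232391 counts in b12 and between 21890197 and 22674974 in 13-3B5, and from 17318 to 18138 genes had counts in a library. Transcripts of the mitochondrial genome held 28.9 to 34.7% of the counts in b12 and 29.6 to 37.2% in 13-3B5. The first principal component of the 8 libraries carried 30.1% of the variance and put replicates 1 and 2 of both antibodies on one side and replicates 3 and 4 on the other. The second carried 22.2% and set b12 replicate 2 apart, at -26.1 where the other 7 libraries lay between -8.55 and 11.2. Where leaving this library out turned the sign of a list median printed below, both medians are given. Across 10693 protein-coding genes at 2 CPM or more the fitted log2 fold change had a Spearman correlation with exon length of -0.29. It was -0.07 without b12 replicate 2. For the log2 differences of pairs 1 to 4 it was 0.02, -0.37, -0.18 and 0.05. The part of length in single gene results was not tested.

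**Figure D1:**
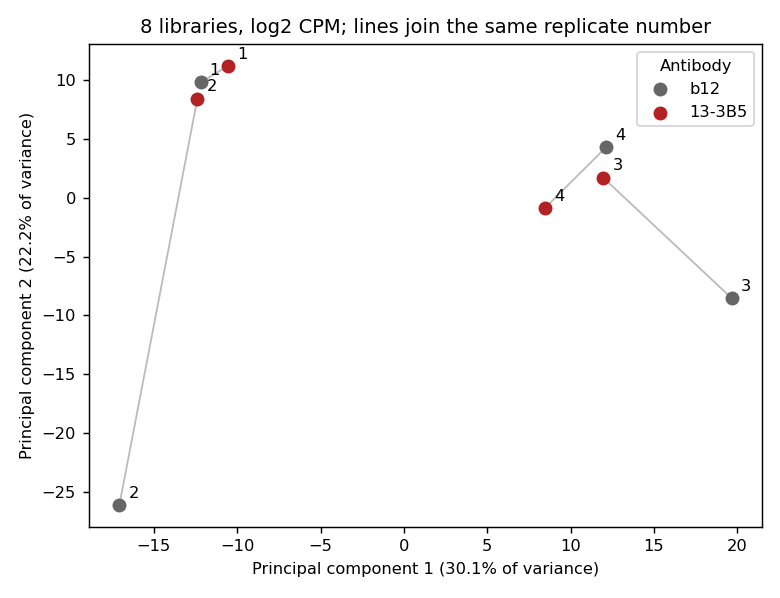
Principal components of log2 CPM (counts relative to library size) in the 8 libraries, with component 1 on the x axis, component 2 on the y axis, and lines joining libraries of the same replicate number. Replicates 1 and 2 lie on the left and replicates 3 and 4 on the right whichever antibody was given, and b12 replicate 2 lies alone at -26.1 on the y axis.

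The libraries carried the markers of myotubes. All 12 myotube markers examined had more than 3 counts in each of the 8 libraries, and their summed level was 13368 to 16749 CPM in b12 and 13553 to 15535 CPM in 13-3B5. CPM is the count relative to the size of its library, after TMM scaling. The 6 myoblast and satellite cell markers in the table, led by Cdh15, summed to 281 to 379 CPM in b12 and 296 to 358 CPM in 13-3B5. Transcripts of 8 dividing cell markers summed to 112 to 194 CPM and 146 to 204 CPM. The 7 fibroblast markers summed to 925 to 1033 CPM and 977 to 1123 CPM, mostly from Dcn at 839 CPM, a proteoglycan gene that C2C12 cells also transcribe. The 6 Schwann cell or neuron markers in the table summed to 30.2 to 59.8 CPM and 34.5 to 49.9 CPM, almost all of it from the tubulin gene Tubb3. Hepatocyte, leukocyte, endothelial, adipocyte and red cell markers each summed to at most 2.71 CPM in every library. Plin1, Apoa2, Ttr, Cdh5 and Alas2 were at 0 in all 8. In bulk RNA, more cells of a kind and more RNA per cell cannot be told apart.

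No gene passed the test. Of 14605 genes tested with edgeR's quasi-likelihood test, 0 (0.00%) passed the adjusted threshold of 0.05, and no adjusted value was smaller than 0.999. An unadjusted p-value under 0.05 was reached by 404 genes (2.77%), 176 higher with 13-3B5 (1.21%) and 228 lower (1.56%). With the replicate number as a block 579 genes (3.96%) reached it and 0 were called. DESeq2, run without that filter, called 0 genes and had 523 of 26172 at that level. With voom quality weights, limma called 0 and had 444 of 14605. Without b12 replicate 1 the unadjusted count was 786 and without b12 replicate 4 it was 634, both with 0 called. Unless the replicate block or another fit is named, p-values, standard errors and intervals below come from the edgeR fit without replicate number. They do not use the pairing. These p-values are unadjusted, and the adjusted value of each was at least 0.999. They rank genes and call none. Log2 fold changes printed beside p-values of the replicate block also come from the fit without replicate number.

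The size of the effects could be bounded for well-expressed genes. Among 2473 genes at 64 CPM or more, the median absolute log2 fold change was 0.05, the median standard error was 0.08, and 95% of the absolute values were under 0.17. For 2419 of these (97.8%) the whole 95% interval lay within a 1.5-fold change in either direction. Among 6322 genes from 8 to 64 CPM the interval lay within 1.5-fold for 5800 (91.7%). From 1 to 8 CPM this held for 622 of 3369 genes (18.5%), and under 1 CPM for 1 of 2441. Changes of that size could therefore not be excluded for most genes below 8 CPM in these libraries. Of all genes tested, 7320 (50.1%) had a positive log2 fold change.

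Large fold changes belonged to rare transcripts. A fold change over 1.5 was fitted for 1175 genes (8.05%). A change over 2 was fitted for 425 genes (2.91%), of which 410 had a mean below 1 CPM. Of these 425, 46 had groups that did not overlap, against 275 of all genes tested (1.88%). The 425 were chosen by their difference, so the 46 are a description. Of 8795 genes at 8 CPM or more, 2 exceeded 1.5-fold, and each of these was carried by 1 control library. Lars2, the mitochondrial leucyl-tRNA synthetase, had 1800 counts in b12 replicate 3 and 108, 130 and 150 in the other control libraries. With 13-3B5 it had 118, 40, 99 and 113 counts in replicates 1 to 4. Its log2 fold change was -2.72 (SE 0.90) and -0.53 without b12 replicate 3. Eif3b, a subunit of translation initiation factor 3, had 1235 counts in b12 replicate 2 and between 452 and 516 in the other controls. With 13-3B5 it had 383 to 474 counts, and its log2 fold change was -0.70 (SE 0.29), or -0.24 without b12 replicate 2.

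**Figure D2:**
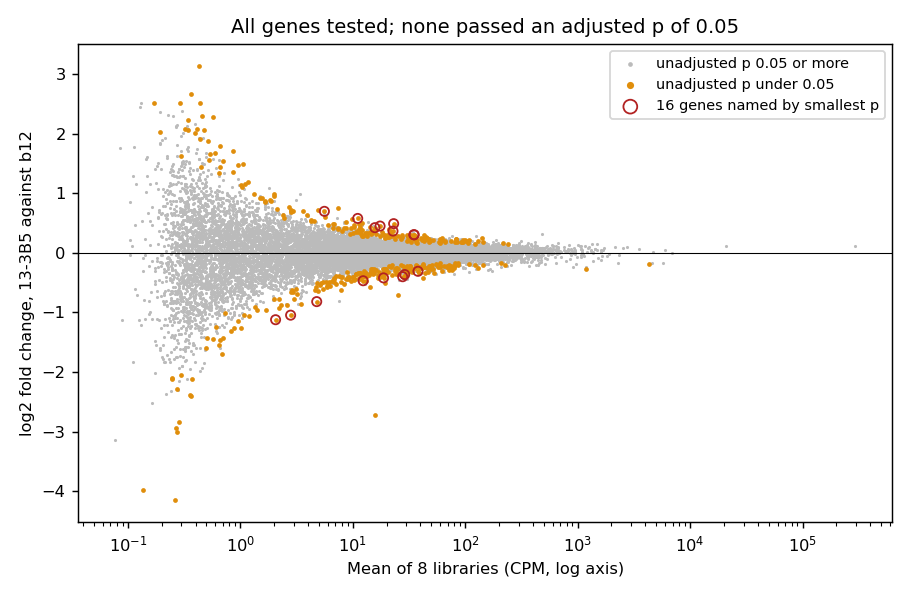
Each point is 1 of 14605 genes, with its mean CPM over the 8 libraries on a log x axis and its log2 fold change on the y axis; orange points have an unadjusted p-value under 0.05 and circles mark the 16 genes named by smallest p-value. The cloud narrows as the level rises, and the isolated orange point at -2.72 is Lars2.

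The receptor complex came first among the groups examined. Musk (ENSMUSG00000057280, GRCm38 chromosome 4, 58285960 to 58374303, plus strand), the target of the antibody, had 49.5, 66.0, 51.2 and 54.7 CPM in b12 replicates 1 to 4. With 13-3B5 it had 48.4, 49.3, 62.3 and 54.6 CPM. The groups overlapped, and the high control was replicate 2. The 95% interval of its log2 fold change ran from -0.24 to 0.15. Lrp4, the agrin receptor, lay between 191 and 220 CPM in b12 and between 181 and 228 CPM with 13-3B5. Rapsn, the scaffold of receptor clusters, had 90.1, 78.5, 72.1 and 74.2 CPM in b12 and 82.4, 91.9, 77.4 and 73.9 CPM with 13-3B5, with an interval of -0.12 to 0.22. Dok7 had 24.0, 20.4, 24.1 and 20.7 CPM in b12 and 19.3, 20.5, 20.4 and 20.6 CPM with 13-3B5, so 1 of the 4 controls lay within the range of the treated libraries. Crk, an adaptor recruited by Dok7, had the smallest p-value of the 7 genes (log2 fold change -0.12, SE 0.07, p 0.0941). For all 7 genes the interval lay within 1.5-fold, 0 reached an unadjusted p-value under 0.05, and their median log2 fold change was -0.04 where that of all genes was 0.00. The median was 0.01 and the log2 fold change of Musk 0.05 without b12 replicate 2.

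The 5 acetylcholine receptor subunits are the best known synaptic transcripts. Chrna1 (ENSMUSG00000027107, chromosome 2, 73563215 to 73580338), the alpha subunit that binds acetylcholine, had 601, 601, 589 and 564 CPM in b12 and 602, 605, 632 and 621 CPM with 13-3B5. Its groups did not overlap, as was true of 275 of the genes tested (1.88%), 144 of them higher with 13-3B5 (0.986%), with means of 589 ± 17.4 and 615 ± 13.7 CPM (SD, n = 4 each). The log2 fold change was 0.06 with a 95% interval from -0.07 to 0.19, so a rise of 1.5-fold lay outside it. Chrnb1 ranged from 116 to 128 CPM in b12 and from 116 to 136 CPM with 13-3B5. Chrnd ranged from 110 to 148 CPM and from 116 to 151 CPM. In both the groups overlapped over most of their range. The median of the 5 subunits was 0.02, and 0.11 without b12 replicate 2.

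The gamma and epsilon subunits are exchanged during muscle maturation. Chrng (chromosome 1, 87204657 to 87212694), the gamma subunit of embryonic muscle, had 88.4, 136, 65.0 and 67.6 CPM in b12. With 13-3B5 it had 79.5, 80.0, 78.0 and 81.5 CPM. The treated libraries lay close together, while the controls ran from below to far above them, with b12 replicate 2 the highest. The log2 fold change was -0.16 (SE 0.17), and 0.11 without b12 replicate 2. It was -0.49 in replicates 1 and 2 and 0.27 in replicates 3 and 4, and the difference of 0.76 had an unadjusted p-value of 0.0005 and an adjusted p-value of 0.847 in edgeR. Chrne, the epsilon subunit of adult muscle, had 3.58, 4.18, 3.48 and 1.63 CPM in b12 and 2.79, 4.14, 2.33 and 3.34 CPM with 13-3B5. Its interval, -0.66 to 0.60, held a 1.5-fold change in either direction, which was not detectable at this level. Per kilobase of exon, b12 libraries held 134 CPM of Chrna1, 47.8 of Chrnb1, 39.2 of Chrnd, 21.4 of Chrng and 1.90 of Chrne, and 13-3B5 libraries 140, 48.6, 40.3, 19.2 and 1.86. The order of the 5 levels was the same with either antibody.

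**Figure D3:**
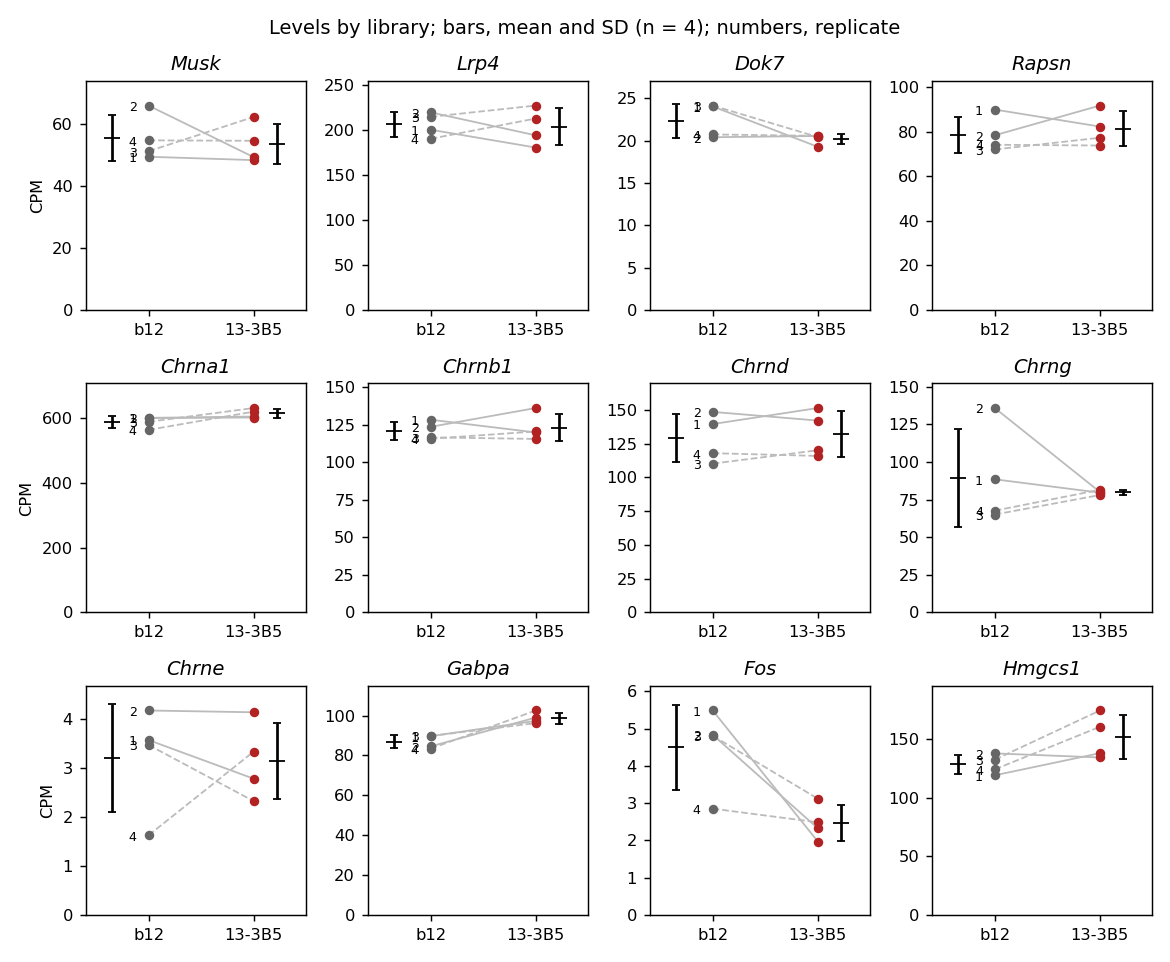
CPM of genes of the receptor pathway in each of the 8 libraries, and of Hmgcs1, 1 panel per gene with a y axis from 0, b12 on the left and 13-3B5 on the right, a line for each replicate number (broken for 3 and 4) and bars for the mean and SD (n = 4). For Chrna1 all treated libraries lie at or above 602 CPM and all controls at or below 601 CPM, whereas for Musk and Chrng the highest point is b12 replicate 2.

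Signalling genes downstream of MuSK showed no member past the test. Of 26 kinases, GTPases and scaffolds, 0 reached an unadjusted p-value under 0.05, the median log2 fold change was -0.03, and 23 intervals lay within 1.5-fold. With the replicate block 2 lay under 0.05, both lower, Apc (p 0.0473) and Macf1, a linker of actin and microtubules (-0.18, p 0.0345), and with the block and without pair 2 there were 0. Without b12 replicate 2 alone there was 1, higher. The smallest p-values belonged to Apc, which links receptor clusters to microtubules (-0.17, SE 0.08, p 0.0578), and Camk2b, a calcium-dependent kinase (0.53, SE 0.29, p 0.0809). Apc was at 131 CPM in b12 replicate 2 and at 97.0 to 116 CPM in the other controls, against 95.9 to 101 CPM with 13-3B5, and its log2 fold change was -0.08 without that library. Camk2b had 1.84 to 3.39 CPM in b12 and 2.31 to 4.42 CPM with 13-3B5, higher in 4 of 4 pairs. Being higher in 4 of 4 pairs was seen in 898 genes (6.15%).

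Genes for uptake and turnover of the receptor also had no member below 0.05. The median of 12 was -0.10, led by Cblb, a ubiquitin ligase of receptor tyrosine kinases (-0.27, SE 0.14, p 0.0659), and Cltc, the clathrin heavy chain (-0.15, SE 0.09, p 0.091). Cltc was highest in b12 replicate 2, at 420 CPM, with 307 to 342 CPM in the other 7 libraries, and its log2 fold change was -0.06 without it. Among 18 receptor tyrosine kinases tested the median was -0.10 and 16 values were below 0, where 50.1% of all genes were above 0. That median was -0.02 without b12 replicate 2. Igf1r, the receptor for insulin-like growth factor 1, had the smallest p-value (-0.25, SE 0.12, p 0.0536), with 45.6 CPM in b12 replicate 2 and -0.15 without it.

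Transcription factors of the synapse included 1 gene with groups that did not overlap, as was true of 1.88% of all genes tested. Gabpa (ENSMUSG00000008976, chromosome 16, 84834925 to 84863779), the DNA-binding subunit of GABP, had 89.7, 84.6, 89.8 and 83.4 CPM in b12. With 13-3B5 it had 97.4, 99.0, 96.2 and 103 CPM, higher in 4 of 4 pairs, as were 6.15% of all genes. The means were 86.9 ± 3.35 and 98.8 ± 2.76 CPM (SD, n = 4 each). The log2 fold change was 0.19 (SE 0.07, 95% interval 0.05 to 0.32, p 0.00914), with 0.17 in replicates 1 and 2 and 0.20 in replicates 3 and 4. With agrin and b12 it was 88.5 ± 5.75 CPM (SD, n = 4). Its adjusted p-value was at least 0.999, and it was the single member of the 9 tested in its list with p under 0.05. Erbb3, a neuregulin receptor, ranged from 117 to 153 CPM in b12 and from 127 to 148 CPM with 13-3B5, and Etv5, an ETS factor of synaptic nuclei, from 7.92 to 12.5 and from 9.26 to 12.1 CPM.

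Fos had the largest difference among the pathway genes named. Fos (ENSMUSG00000021250, chromosome 12, 85473890 to 85477273), an immediate early transcription factor, had 5.48, 4.83, 4.81 and 2.85 CPM in b12 and 1.97, 2.32, 3.12 and 2.48 CPM with 13-3B5. It was lower in 4 of 4 pairs, as were 878 genes (6.01%), yet the lowest control lay below the highest treated library. The log2 fold change was -0.86 (SE 0.26, 95% interval -1.39 to -0.32, p 0.00275), with -1.26 in replicates 1 and 2 and -0.45 in replicates 3 and 4. With agrin and b12 it was 3.84 ± 0.50 CPM (SD, n = 4). It was the 1 of 18 immediate early genes with p under 0.05, and the list's median was -0.05. With the replicate block there were 2, the other being Jun, its partner in AP-1 (-0.18, p 0.0339). Egr1, another early gene, ranged from 3.12 to 4.20 CPM in b12 and from 2.64 to 4.07 CPM with 13-3B5. Fosl2, a Fos relative, had a log2 fold change of -0.21 (SE 0.11, p 0.0588). Among 9 feedback inhibitors of the ERK pathway, Dusp6 lay from 33.9 to 38.4 CPM and from 34.9 to 40.7 CPM, the median was 0.02, and 0 had p under 0.05.

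The interval lay within 1.5-fold for 11 of 15 BMP genes tested and for 6 of 17 Wnt genes tested. Of 15 BMP genes tested 0 had p under 0.05 and the median was -0.03. Id1, a BMP target, had 3.76 to 6.72 CPM in b12 and 4.71 to 6.21 CPM with 13-3B5. Of 17 Wnt genes, 2 were below 0.05, both lower, with a median of -0.07. Without b12 replicate 2 there were 0 lower and 1 higher, and the median was -0.13. Lrp6, a Wnt co-receptor, had 73.2, 92.3, 78.6 and 76.6 CPM in b12 and 67.2, 68.1, 65.5 and 74.4 CPM with 13-3B5 (-0.22, SE 0.10, p 0.0282). Sfrp1, a secreted Wnt antagonist, had 7.01, 6.97, 3.94 and 5.79 CPM and 3.55, 5.69, 3.34 and 2.66 CPM (-0.64, SE 0.28, p 0.0309). Both were lower in 4 of 4 pairs, as were 6.01% of all genes, and in both the groups overlapped. Lrp6 was highest in b12 replicate 2, and without that library the log2 fold changes were -0.15 for Lrp6 and -0.55 for Sfrp1.

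In the synaptic basal lamina list of 15 genes, 1 had p under 0.05. Nid1, which links laminin to collagen IV, had 68.0, 94.7, 76.8 and 72.6 CPM in b12 and 64.5, 63.2, 70.8 and 64.4 CPM with 13-3B5 (-0.25, SE 0.10, p 0.0191). The highest value was again b12 replicate 2, and without it the log2 fold change was -0.14. The list's median was -0.10, and 0.01 without that library, where 0 lay under 0.05. Ache, acetylcholinesterase, was near 1 CPM with an interval of -1.15 to 1.17, too wide to bound. Colq, its collagen tail, ranged from 1.67 to 6.97 CPM in b12 and from 3.64 to 4.75 CPM with 13-3B5, and its log2 fold change was 0.12, or 0.60 without b12 replicate 2. The 13 genes of the dystrophin and utrophin complex had a median of -0.02 and those of denervation and atrophy, 13 tested, a median of -0.07, each with 0 under 0.05. These medians were 0.03 and 0.04 without b12 replicate 2.

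Muscle differentiation genes had 0 members under 0.05. The 12 myogenic and MEF2 factors had a median of -0.05, and 0.02 without b12 replicate 2, and with the replicate block 1 lay under 0.05, the fusion gene Mymx (0.28, p 0.0489). Myog, the differentiation factor myogenin, had 601, 495, 585 and 596 CPM in b12 and 597, 624, 669 and 598 CPM with 13-3B5 (0.13, SE 0.08, p 0.111), or 0.07 without b12 replicate 2. Of 8 myosin heavy chains the median was -0.12, and -0.00 without b12 replicate 2. Myh7, the slow myosin, had 126, 122, 98.0 and 135 CPM in b12 and 113, 115, 78.1 and 77.2 CPM with 13-3B5. It was lower in 4 of 4 pairs, as were 6.01% of all genes (-0.33, SE 0.18, p 0.0819, and 0.0345 with the replicate block). The 23 thin filament and Z-disc genes had a median of 0.03 with 20 intervals within 1.5-fold. In 1 of them the groups did not overlap, lower with 13-3B5, as was true of 0.897% of all genes tested. The 17 genes of excitation-contraction coupling had a median of -0.07, and 0.06 without b12 replicate 2. The 15 of glycolysis had a median of 0.01, with 2 lower under 0.05 in the replicate block, the hexokinase gene Hk2 (-0.27, p 0.0218) and the glucose transporter gene Slc2a4 (-0.68, p 0.0212). Intervals lay within 1.5-fold for 10 of those 17 coupling genes and for 5 of the 8 myosins.

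Cholesterol synthesis had the most members with p under 0.05 of the 26 lists. Of its 16 genes 3 were higher at that level and 0 lower, against 1.21% and 1.56% of all genes, and the median log2 fold change was 0.16 where that of all genes was 0.00. With the replicate number as a block the count was 6 higher and 0 lower, against 1.89% of all genes higher and 2.07% lower. Without b12 replicate 2 the median was 0.18. In replicates 1 and 2 it was -0.01 and in replicates 3 and 4 it was 0.26, a gap that was not tested for the list. Msmo1, a sterol demethylase (chromosome 8, 64718139 to 64733792), had 82.6, 72.2, 79.4 and 73.6 CPM in b12 and 91.7, 92.2, 89.0 and 87.5 CPM with 13-3B5. Its groups did not overlap (0.23, SE 0.09, p 0.0155), as was true of 1.88% of all genes tested. Hmgcs1, the cytosolic HMG-CoA synthase whose promoter is shown above, had 119, 138, 132 and 124 CPM in b12 and 138, 134, 174 and 160 CPM with 13-3B5, so the overlap was in replicate 2 (0.24, SE 0.10, p 0.0208). Sc5d, another sterol enzyme, was at 37.3 ± 4.43 and 44.1 ± 2.22 CPM (SD, n = 4 each). Insig1, which holds the sterol sensor in the endoplasmic reticulum, was at 112 ± 22.3 and 136 ± 10.2 CPM (SD, n = 4 each). Log2 fold changes of Fdps, Dhcr7 and Srebf2 were between -0.13 and -0.08.

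**Figure D4:**
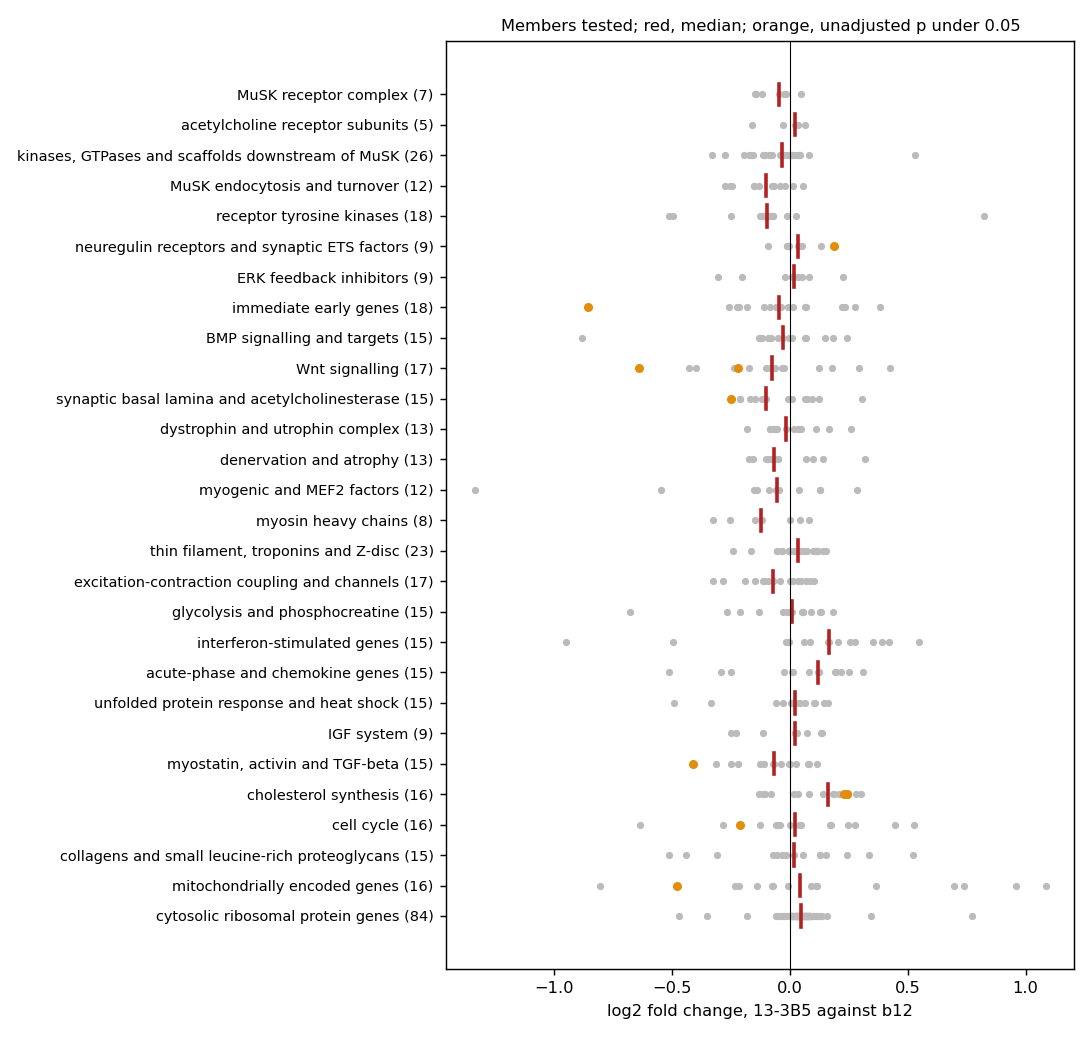
Log2 fold changes of the tested members of each gene list, 1 row per list with its number of members tested; each point is a gene, orange where the unadjusted p-value was under 0.05, and the red mark is the median. Interferon-stimulated genes (median 0.17), cholesterol synthesis (0.16) and acute-phase and chemokine genes (0.12) sit to the right. Myosin heavy chains lie furthest to the left (-0.12), and the receptor complex and the receptor subunits lie close to 0.

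Each of the other lists had 0 or 1 member with p under 0.05. Interferon-stimulated genes had a median of 0.17 over 15 tested and acute-phase and chemokine genes 0.12 over 15, with 0 under 0.05 in each, and without b12 replicate 2 these medians were 0.12 and 0.04. With the replicate block 1 interferon-stimulated gene lay under 0.05, Gbp2 (0.39, p 0.0224). In the myostatin, activin and TGF-beta list 1 of 15 was under 0.05. It was Inhba, an activin subunit, with 19.9, 29.6, 16.6 and 13.0 CPM in b12 and 12.2, 18, 15.9 and 13.4 CPM with 13-3B5 (-0.41, SE 0.18, p 0.0289), or -0.15 without b12 replicate 2. The median of that list was -0.07, and 0.01 without it. In the cell cycle list 1 of 16 was under 0.05, the inhibitor gene Cdkn1a, at 115 to 145 CPM in b12 and 107 to 123 CPM with 13-3B5 (-0.21, SE 0.10, p 0.0372). Without b12 replicate 2, where it was highest, its log2 fold change was -0.16 and 0 of the list lay under 0.05. The list's median was 0.02, and 0.10 without that library, and with the replicate block 2 were lower, Cdkn1a and Ccne1 (-0.63, p 0.0423). The 8 dividing cell markers had a median of 0.21, with -0.11 in replicates 1 and 2 and 0.73 in replicates 3 and 4, and 0.37 without b12 replicate 2. The 84 cytosolic ribosomal protein genes tested had a median of 0.05 and 77 intervals within 1.5-fold, and the median was -0.05 without b12 replicate 2. Over all 26 lists, 10 of 365 tested members were under 0.05 (2.74%), 4 higher and 6 lower, against 2.77% of all genes.

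The 16 genes with the smallest p-values among those with groups that do not overlap and a mean of at least 1 CPM were taken for their difference, so their values are a description. Gnb5, a G protein beta subunit (ENSMUSG00000032192, chromosome 9, 75306288 to 75345876), had 17.9, 16.1, 13.1 and 12.1 CPM in b12 and 21.5, 21.3, 18.7 and 19.3 CPM with 13-3B5. Acat2, a cytosolic acetyl-CoA acetyltransferase (chromosome 17, 12942890 to 12960747), had 19.2, 19.2, 20.9 and 17.7 CPM in b12 and 23.9, 24.7, 32.8 and 26.6 CPM with 13-3B5. Log2 fold changes were 0.45 (SE 0.11) and 0.49 (SE 0.12). In the libraries with agrin and b12 Gnb5 was at 17.6 ± 0.304 CPM and Acat2 at 24.0 ± 2.83 CPM (SD, n = 4). The other 6 higher genes were Ckap2, Slc39a3, Adprhl1, Rmc1, C330018D20Rik and Ccdc82, with log2 fold changes from 0.30 to 0.70.

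Sertad2, a transcriptional coregulator (chromosome 11, 20543253 to 20653021), had 29.5, 36.7, 32.8 and 27.5 CPM in b12 and 25.8, 22.2, 23.2 and 24.6 CPM with 13-3B5 (-0.40, SE 0.10). Mindy1, a deubiquitinase (chromosome 3, 95281345 to 95296166), had 28.7, 34.2, 35.5 and 32.0 CPM in b12 and 27.0, 26.9, 22.5 and 25 CPM with 13-3B5 (-0.36, SE 0.10). Agrin libraries with b12 held 28.2 ± 1.56 CPM of Sertad2 and 27.0 ± 1.61 CPM of Mindy1 (SD, n = 4). The agrin and 13-3B5 comparisons share the b12 controls, so likeness between them is not read from these values. Pitpnb, Ptpn14, A630089N07Rik, Ankhd1, Zfp280c and Tkfc were the other 6 lower genes, from -0.31 to -1.12. Pitpnb, A630089N07Rik and Tkfc had the lowest levels of the 16 and the largest of these fold changes.

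**Figure D5:**
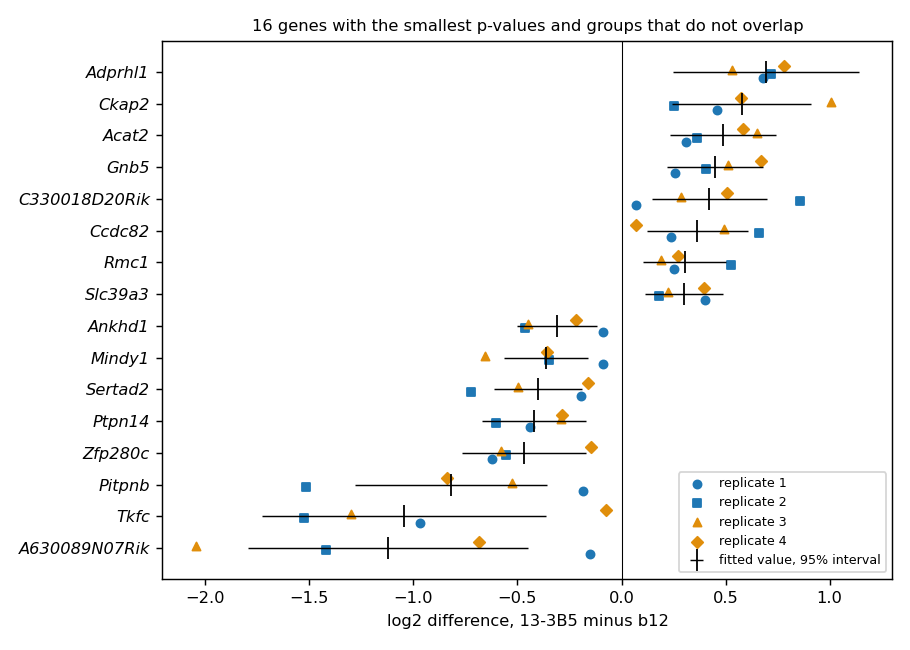
Log2 difference, 13-3B5 minus b12, on the x axis for each of the 16 genes with the smallest p-values among those whose groups do not overlap; symbols are the 4 replicate numbers, and the line is the fitted value with its 95% interval. Every symbol lies on one side of 0 because separation chose the genes, and the fitted values run from -1.12 for A630089N07Rik to 0.70 for Adprhl1.

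Differences between replicates 1 and 2 and replicates 3 and 4 were tested directly. The treatment effect differed between them for 0 genes at an adjusted p-value under 0.05 in edgeR (smallest 0.847, for Cnr1), with 723 under 0.05 unadjusted. Within replicates 1 and 2 alone 870 genes and within replicates 3 and 4 alone 612 genes had an unadjusted p-value under 0.05, and 0 were called in either. Without a filter on low counts 8 and 11 were called. The spread of log2 differences over 8795 genes at 8 CPM or more was widest in pair 2, with an SD of 0.31 against 0.19, 0.24 and 0.20 in pairs 1, 3 and 4. List members under the filter on low counts, among them Erbb4, Wnt5a, Bmp2, Isg15 and Mstn, were not tested.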

How the data were processed

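RNA from C2C12 myotubes was sequenced as total RNA depleted of ribosomal RNA, with a stranded kit, per the labels' protocols. The authors deposited 1 table of whole-number counts per gene for 20 libraries, and its counts were used as deposited. Per the submitters' processing notes the tools were Trim Galore 0.6.6, cutadapt 2.10, STAR 2.7.6a, HTSeq 0.12.4 and DESeq2 1.32.0, with build GRCm38. The strand setting and annotation release are not given in the sources used here, so reads of overlapping or antisense genes may not be separated, and near-identical genes such as Hspa1a and Hspa1b may share reads. Gene names came with the deposited counts. Positions and exon lengths came from GENCODE M21, which matched 26667 of 26722 identifiers.

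Genes were filtered with filterByExpr (14605 left), scaled by TMM and tested with edgeR 4.0.16 (R 4.3.3), a two-sided quasi-likelihood test on treatment in all 20 libraries (15 residual degrees of freedom) with Benjamini-Hochberg adjustment. DESeq2 1.42.0 and limma 3.58.1 were alternatives, with other scalings, filters, blocks and left-out libraries. The code was tested on simulated data. Intervals cover the spread between libraries and do not use the pairing by replicate number. A count of 3 corresponds to 0.128 to 0.153 CPM.

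Same-numbered libraries deviated together (correlations 0.257, 0.165, 0.258 and 0.127 over 11149 genes for replicates 1 to 4), so the numbers were taken to pair them, from the data and not from the labels. Libraries with different numbers within replicates 1 and 2 or within 3 and 4 correlated as much (0.290 for b12 replicate 1 with 13-3B5 replicate 2, 0.264 for b12 replicate 3 with 13-3B5 replicate 4, 0.136 and 0.0489 for the others), so these values do not separate pairing by number from a split between 1 and 2 and 3 and 4. No 2 libraries of the same antibody agreed within counting error. Genes named were 20 pathway genes, the 8 higher and 8 lower with the smallest p-values among those with groups that do not overlap and at least 1 CPM, up to 2 per list with the smallest p-values, and genes called under an alternative. The text prints a part of the 84 so chosen, and Sc5d, Insig1, other cholesterol genes and genes under 0.05 only with the replicate block as members of their lists, chosen after their values were seen. Some members are not reported here. The comparison, the members and the gene lists were chosen with earlier results of these data known.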

Additional observations from a re-analysis of the deposited data

Results flagged for a closer look

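Dixon's test was applied to 78 groups of 4 libraries, and in 5 of them 1 library lay apart from the other 3, where chance at 1 in 20 gives 3.9. The number of genes with counts was 17586 in b12 replicate 4 and 17905 to 17950 in the other controls. Myog was at 495 CPM in b12 replicate 2 and at 585 to 601 CPM in the other controls. Slc39a3, a zinc transporter gene, was at 30.1 CPM in b12 replicate 1 and at 31.9 to 32.2 CPM in the other controls. Dok7 was at 19.3 CPM in 13-3B5 replicate 1 and at 20.4 to 20.6 CPM in the others of its group. Egr1 was at 2.64 CPM in 13-3B5 replicate 2 and at 3.89 to 4.07 CPM in the others.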

How the results depend on the processing

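The count of 0 genes with an adjusted p-value under 0.05 was the same in every alternative run except the fit without a filter on low counts, which called 2, Lars2 (edgeR adjusted p = 4.16e-43) and Eif3b (edgeR adjusted p = 0.000106), both carried by 1 control library. That fit also called 6 genes for a difference between replicates 3 and 4 and replicates 1 and 2, where 0 were called otherwise. They were Mmd, Col5a3, Fasn, Chrng, Myh1 and H3c8, of which 5 were highest in b12 replicate 2. Within replicates 1 and 2 it called 8 genes and within replicates 3 and 4 it called 11. The count at an unadjusted p-value under 0.05, 404 of 14605, was 1186 of 26190 without the filter. It was 611 of 14605 with replicates 1 and 2 blocked against 3 and 4. With the replicate block it was 579, and no call changed. Leaving out 1 library gave 300 to 786, and the replicate block without 1 pair gave 392 to 789, with 788 without replicate 1. Of 1847 values of 84 named genes, 1803 moved by less than 1 standard error, and 64 values in 18 genes changed sign, none of the latter past the threshold. The cause of these shifts was not tested. Without b12 replicate 2 the log2 fold change of Musk was 0.05 and that of Chrng 0.11. Depth limits genes under 8 CPM, and 1 time point and 1 dose were measured.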
